A study of Ovis aries with 18 samples.

Results

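CD3D, CD3E, CD4, CD28 and LCK are 5 genes of the T cell receptor complex, its coreceptors and its proximal signalling. Their levels were followed in sheep whole blood stimulated with agonists of TLR4. All probes that carried these gene names were taken, which gave 5 of the 944 named genes and 8 of the 15008 non-control probes on the array. CD3D, CD3E and CD4 had 2 probes each, and CD28 and LCK had 1 each. Blood came from 6 healthy adult female sheep of about 3 years, named 71Y, 51Y, 20, 170, 80 and 65Y in the labels. Blood of each animal was drawn into lithium heparin, divided, and incubated for 90 minutes with lipopolysaccharide (LPS, from the wall of Gram-negative bacteria, 1 µg per the labels), with the control phosphate-buffered saline (PBS), or with monophosphoryl lipid A (MPLA, a derivative of LPS that lacks a phosphate, 10 µg per the labels). Each of the 3 treatments therefore had 6 arrays, 1 for each animal, and agonist and amount cannot be told apart where MPLA is set against LPS.

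The T cell receptor recognises antigen but has no signalling part of its own, and the CD3 proteins carry its signal into the cell. The kinase LCK, held near the receptor by the coreceptors CD4 and CD8, phosphorylates the CD3 chains, and CD28 adds the costimulatory signal that full activation needs. LPS and MPLA act through TLR4, which in blood is best known on monocytes and neutrophils, so these genes describe lymphocytes within a mixed sample. In RNA of whole blood, fewer T cells and less of a transcript per T cell cannot be told apart.

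Brightness varied from array to array. The scale of each array, its 75th percentile of processed signal, lay between 24.8 and 124.2, and between 23.9% and 45.1% of probes were well above background, a flag that the scanner software sets for each spot. There were 3 slides. For 5 of the 6 animals a single slide held the 3 arrays, while the MPLA array of animal 170 was placed apart from its PBS and LPS arrays. Levels are given as log2 of the processed signal over the 75th percentile of the array, so that 0 is the signal at that percentile. Levels of different probes are not comparable with each other, because each probe binds its target with its own strength.

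CD3D encodes the delta chain of CD3 and CD3E the epsilon chain, which pair with each other in the receptor complex, and both genes lie next to each other in the sheep gene table. All 4 of their probes were well above background on 18 of 18 arrays. CD3D probe A_70_P039311 had levels of 6.68, 7.33 and 7.52 with PBS (lowest, median and highest animal), 6.75, 7.19 and 7.40 with LPS and 6.72, 7.25 and 7.60 with MPLA. The second CD3D probe, A_70_P039312, had levels of 6.53, 7.11 and 7.43 with PBS, 6.57, 6.90 and 7.18 with LPS and 6.47, 7.02 and 7.45 with MPLA. For both probes the 3 treatments covered nearly the same range. CD3E probe A_70_P039466 had levels of 6.87, 8.03 and 8.32 with PBS, 6.86, 7.97 and 8.25 with LPS and 7.09, 8.03 and 8.33 with MPLA. The second CD3E probe, A_70_P039467, had levels of 4.22, 4.93 and 5.46 with PBS, 4.54, 4.80 and 5.62 with LPS and 4.54, 5.07 and 5.52 with MPLA. The lowest value of each probe under each treatment was that of animal 20, except for A_70_P039312 with PBS, where animal 65Y was lower, and the treatments overlapped for all 4 probes.

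**Figure D1:**
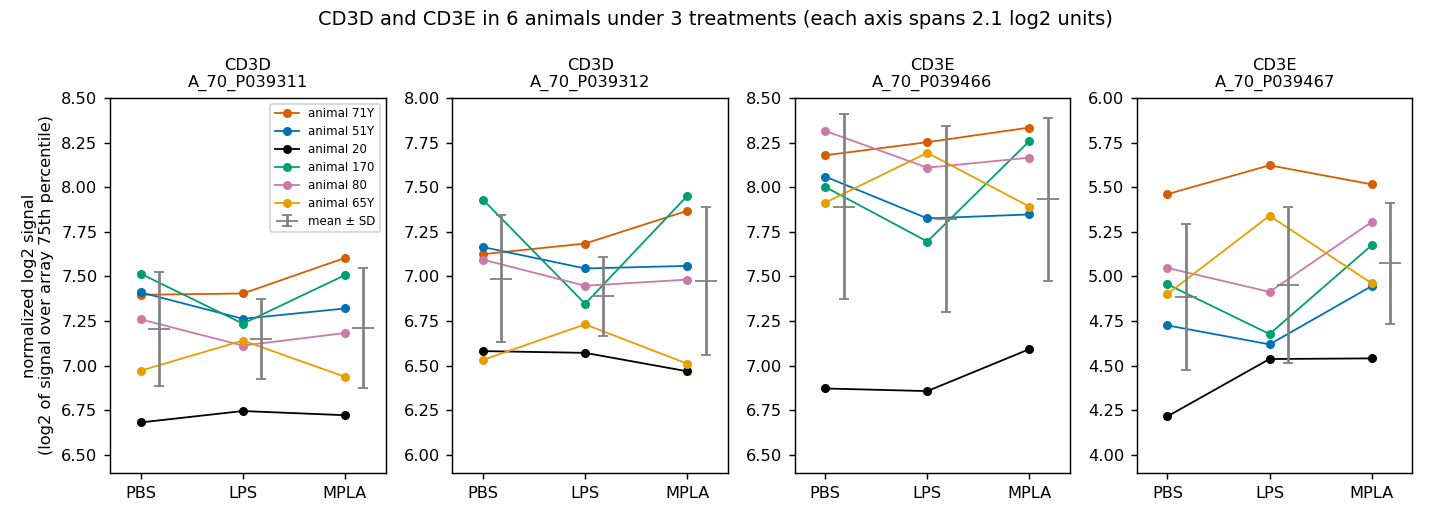
Normalized log2 signal of the 4 CD3D and CD3E probes (y axis, log2 of the signal over the 75th percentile of the array) under PBS, LPS and MPLA (x axis). Coloured lines join the 3 arrays of each of the 6 animals, and grey marks give mean ± SD of the 6 animals. The treatments cover overlapping ranges, and lines of some animals cross, such as that of animal 170 for A_70_P039312 (7.43, 6.85 and 7.45), with animal 20 lowest for CD3E probe A_70_P039466 at 6.87, 6.86 and 7.09; on this scale animal 20 had the lowest mean for all 4 probes, but for 1 of 4 under median scaling or normexp background correction.

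The first comparison set LPS against PBS within animals, and none of the 4 CD3 probes was called. CD3D differed by -0.06 ± 0.16 (log2, SD of the 6 animals) for A_70_P039311 and by -0.10 ± 0.27 for A_70_P039312. CD3E differed by -0.07 ± 0.22 for A_70_P039466 and by 0.07 ± 0.28 for A_70_P039467. The values scattered on both sides of 0, with 3, 2, 2 and 3 of 6 animals higher with LPS in the order in which the probes are given. limma with animal as a block gave an adjusted p of 1.00 for each, and 0 of 4 had an unadjusted p under 0.05. Over the whole array limma called 37 of 4122 tested probes, or 0.898%, and 3.78% had an unadjusted p under 0.05. The limma 95% intervals were -0.37 to 0.26 and -0.45 to 0.25 for the CD3D probes and -0.40 to 0.27 and -0.29 to 0.42 for the CD3E probes. A change of 0.74 to 0.83 on the log2 scale, or 1.67-fold to 1.77-fold, would have been needed for a call at the spread of these probes.

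The second comparison set MPLA against PBS, and again none of the 4 CD3 probes was called, where 41 of 4122 probes (0.995%) were called over the array. CD3D differed by 0.01 ± 0.11 (95% interval -0.31 to 0.32, adjusted p = 0.985 in limma) for A_70_P039311 and by -0.01 ± 0.14 (-0.33 to 0.31, adjusted p = 0.967) for A_70_P039312. CD3E probe A_70_P039466 differed by 0.04 ± 0.20 (-0.29 to 0.37, adjusted p = 0.907). The 3 probes were higher with MPLA in 2, 2 and 3 of 6 animals. The second CD3E probe, A_70_P039467, differed by 0.19 ± 0.11 (-0.13 to 0.50, adjusted p = 0.664) and was higher in 6 of 6 animals, by 0.05 to 0.32. For this probe an exact sign-flip test (two-sided, 6 animals) gave p = 0.031, the smallest that 6 animals allow, and 0.375 after adjustment over the 12 tests of 4 probes in 3 comparisons. Over the array 86 of 4122 probes, or 2.09%, were higher with MPLA in 6 of 6 animals. The other CD3E probe was higher in 3 of 6 animals, and the difference between the 2 probes was not tested. None of the 4 had an unadjusted p under 0.05 in limma, against 6.94% over the array. The methods' paired t-test at 1.5-fold called 0 of 4, but A_70_P039467, the largest of the 4, differed by 1.14-fold. The cutoff alone thus excluded all 4, whatever their p. Without the cutoff, the paired t-test gave A_70_P039467 a p of 0.419 after Benjamini-Hochberg adjustment.

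Set against LPS, MPLA gave differences of 0.06 ± 0.17 and 0.09 ± 0.29 for the CD3D probes and of 0.11 ± 0.28 and 0.12 ± 0.34 for the CD3E probes. All 4 were positive on average, with 4, 4, 5 and 4 of 6 animals higher with MPLA, and the limma adjusted p lay between 0.887 and 0.941. None was called and none had an unadjusted p under 0.05, against 2 called probes (0.0485%) and 4.61% with an unadjusted p under 0.05 over the array. The limma 95% intervals reached from -0.30 to 0.42, -0.30 to 0.47, -0.28 to 0.50 and -0.28 to 0.53. Animal 170 had the largest difference for each of the 4 probes, at 0.27, 0.60, 0.56 and 0.50, and it is also the animal whose 2 arrays in this comparison lay on different slides. Without animal 170 the differences were 0.02, -0.02, 0.02 and 0.05, and without animal 65Y they were 0.12, 0.15, 0.19 and 0.22. On slide 2 alone (animals 80 and 65Y) they were -0.07, -0.09, -0.12 and 0.01. On slide 3 alone (animals 51Y and 20) they were 0.02, -0.04, 0.13 and 0.16. Leaving out animal 170 thus lowered all 4 means, but the CD3E means on slide 3, also without it, were no lower than those of all 6 animals. The size of these means also depended on the processing. With normexp background correction they were 0.63, 0.64, 0.70 and 0.64, and with median scaling 0.26, 0.28, 0.30 and 0.32, and none was called. The 3 comparisons share arrays pairwise and do not support each other. The median change over all tested probes was -0.01 with LPS, -0.09 with MPLA and -0.08 for MPLA against LPS.

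**Figure D2:**
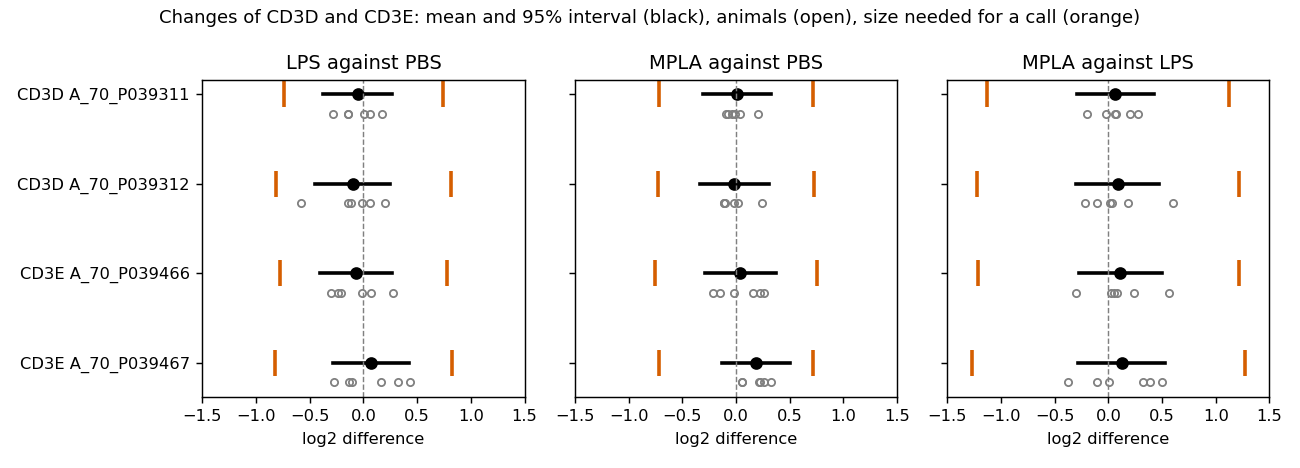
Log2 difference (x axis) of the 4 CD3D and CD3E probes in the 3 comparisons. Black points and bars are means and limma 95% intervals, open circles are the 6 animals, and orange ticks mark the size that a call would have needed; every interval holds 0 and every mean lies inside the ticks.

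The methods filter, which keeps a probe that is above background on all arrays of at least 1 treatment, removed CD4, CD28 and LCK from the tests. A figure legend of the paper instead gives 4 of 6 arrays, which kept 4992 probes here and removed the same genes. CD4, the coreceptor of helper T cells, was not well above background on any of 18 arrays with either probe. Probe A_70_P026727 sat at the lowest processed signal of its array on 18 of 18 arrays, and A_70_P026726 did so on 15, with a highest signal of 12.1 on the PBS array of animal 20. The probes gave no level for CD4 and hence no fold change. On the raw spot signal, A_70_P026726 was brighter than 68.2% and A_70_P026727 brighter than 37.0% of the 77 negative control spots of the same array (median over 18 arrays). CD4 thus lay mostly within the range of spots that have no target, although A_70_P026726 passed the weaker flag of a significantly positive signal on 3 of 18 arrays.

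CD28, the costimulatory receptor, lies next to its inhibitory relative CTLA4 in the sheep gene table. Its probe A_70_P029941 was well above background on 1 array, PBS of animal 71Y, at a signal of 46.3. The lowest, median and highest signals were 4.0, 6.0 and 46.3 with PBS, 3.6, 5.3 and 16.2 with LPS and 2.8, 5.9 and 25.4 with MPLA. Most of these values are the lowest signal of the array, on 4 PBS, 4 LPS and 3 MPLA arrays, and they have no order. On the raw spot signal CD28 was brighter than 90.3% of negative control spots (median over 18 arrays). It passed the weaker flag of a significantly positive signal on 7 of 18 arrays, those of animal 71Y included. CTLA4, which T cells display after activation, was well above background on 0 and 3 of 18 arrays with its 2 probes, 1 array under each treatment.

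LCK, the kinase that starts signalling from the receptor, was the most often detected of the untested members. Its probe A_70_P054986 was well above background on 5 of 18 arrays, on 1 of 6 with PBS (animal 71Y), 1 of 6 with LPS (animal 170) and 3 of 6 with MPLA (animals 71Y, 51Y and 80). The signals (lowest, median, highest) were 5.4, 6.7 and 392.2 with PBS, 3.9, 13.8 and 35.9 with LPS and 7.6, 29.9 and 266.3 with MPLA. The treatments overlapped, and the highest PBS and MPLA values were both of animal 71Y. The LCK signal was brighter than 96.1% of negative control spots on the median array, and it passed the weaker flag of a significantly positive signal on 15 of 18 arrays. LCK thus passed the weaker flag on most arrays and the stricter one on few. On 9 of 18 arrays fewer than 5% of negative control spots were as bright, so the weaker flag also passed spots within the negative control range. Fitted without any filter, with values at background in it, LCK differed by 0.92 between MPLA and PBS (unadjusted p = 0.028, adjusted p = 0.805 over 15008 probes in limma) and by -0.14 between LPS and PBS (adjusted p = 1.00). No treatment effect on LCK was called, and more arrays with detection under MPLA (3 against 1) is a count from 6 animals with no test. Detection over the whole array differed as well. From PBS to MPLA, the probes well above background went from 4185 to 5844 in animal 51Y, 4429 to 5168 in animal 80 and 5743 to 5154 in animal 71Y. In animal 170 they went from 3589 with PBS to 5151 with LPS. The part of array-wide detection in the LCK count was not tested.

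**Figure D3:**
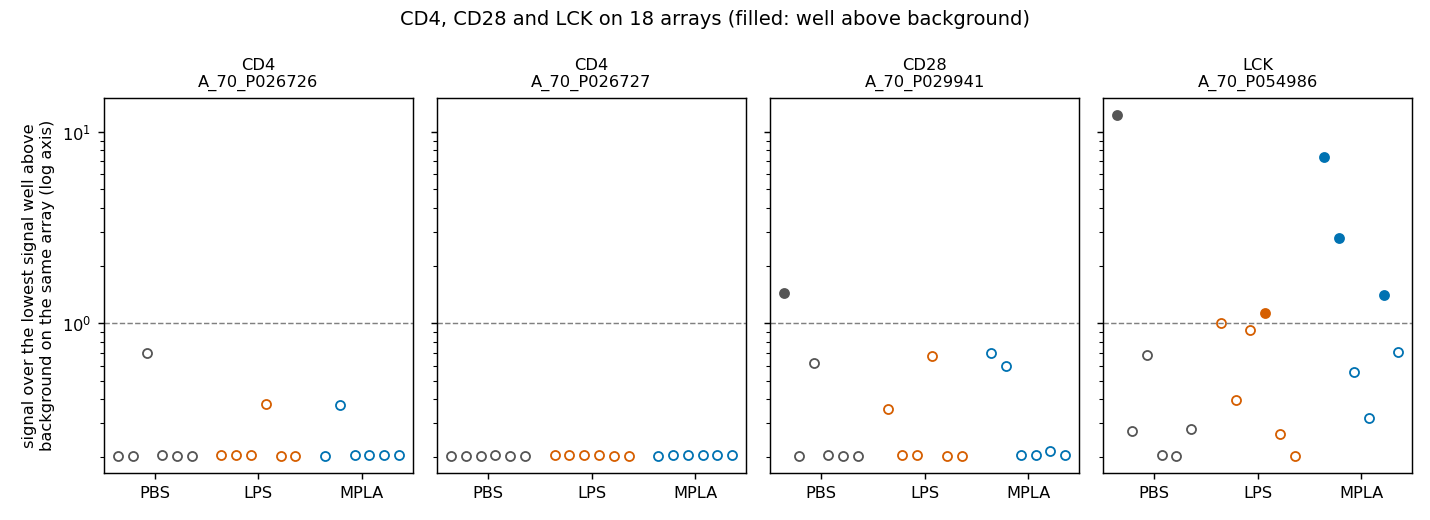
Processed signal of the CD4, CD28 and LCK probes over the lowest signal well above background on the same array (y axis, log scale), for the 6 animals under PBS, LPS and MPLA (x axis). Filled points are well above background and the dashed line marks a ratio of 1; CD4 has 0 filled points, CD28 has 1 and LCK has 5.

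The 2 brightest LCK values led to the 3 arrays of animal 71Y, which are described here after their values were seen. On these arrays LCK had signals of 392.2 with PBS, 35.9 with LPS and 266.3 with MPLA. On the LPS array LCK passed the weaker flag but not the stricter one, just under the lowest signal well above background (36.0). The PBS level is therefore given by a bound, at least 7.99-fold higher than the LPS level after scaling, against 1.18-fold higher than the MPLA level. The LPS signal itself gave 8.03-fold. CD247, the zeta chain that carries most of the phosphorylation sites of the receptor complex, followed the same course. Its probe A_70_P039351 had signals of 223.3, 8.0 and 158.1 with PBS, LPS and MPLA, at least 4.55-fold higher with PBS than with LPS. Its probe A_70_P039352 had 132.3, 7.3 and 86.9, at least 2.70-fold higher. In all the other animals CD247 was not well above background under any treatment. CD28 had signals of 46.3, 12.9 and 25.4 on these arrays, and CD40LG, the ligand through which activated helper T cells reach B cells, had 45.9, 7.3 and 28.1 with its probe A_70_P039432; for neither did the bound against LPS exceed 1-fold.

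CD3 did not follow this course in the same blood. In animal 71Y the LPS minus PBS differences were 0.01 and 0.06 for the CD3D probes and 0.07 and 0.16 for the CD3E probes. These are single arrays of 1 animal, so no test of the difference exists. Of the 5743 probes well above background on the PBS array of animal 71Y, 21 (LCK included) had a fall to LPS, measured or as a bound, at least as large as that of LCK. For CD247 the same counts were 61 (A_70_P039351) and 225 (A_70_P039352). On the LPS array of 71Y, 440 probes were missing that were well above background on the animal's other 2 arrays, and this number ranged from 9 to 687 over the 18 arrays. The part of array quality in the values of animal 71Y was not tested.

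**Figure D4:**
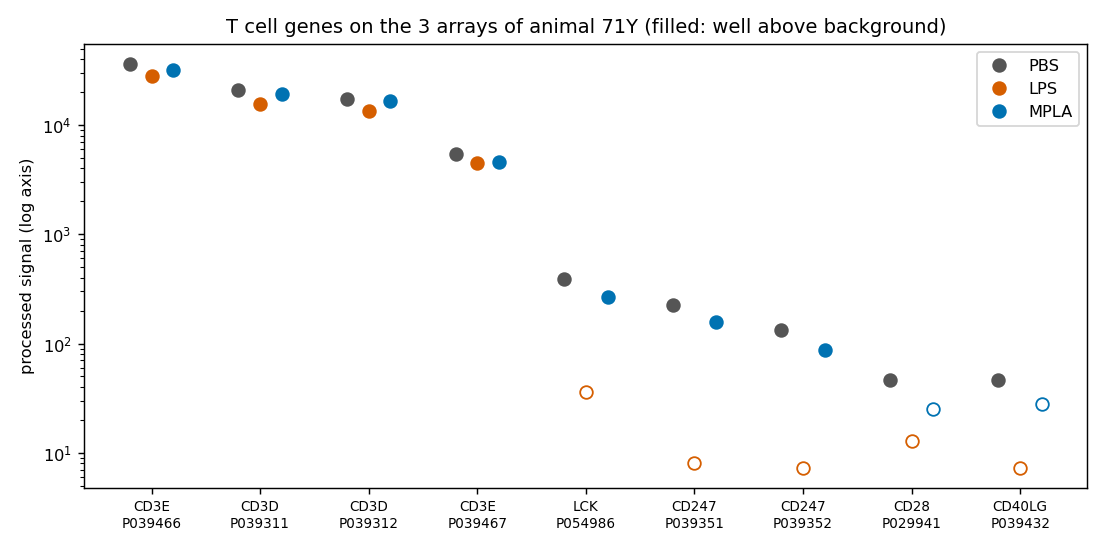
Processed signal (y axis, log scale) of T cell genes on the PBS, LPS and MPLA arrays of animal 71Y, with each probe at its own place on the x axis and filled points well above background. Signals are not scaled and are to be read within a probe; LCK falls from 392.2 to 35.9 and CD247 from 223.3 to 8.0 between PBS and LPS, while each of the 4 CD3 probes has nearly level signals on the 3 arrays.

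Variation among CD3D and CD3E lay mostly between animals. Of the variance over 18 arrays, animal accounted for 90.6% and 81.6% in the CD3D probes and for 91.6% and 81.7% in the CD3E probes, with a median of 60.1% over all tested probes. Treatment accounted for 1.05%, 1.99%, 0.97% and 4.46%, with a median of 5.36%. limma's F test over the 6 animals, with treatment as a term, called all 4 probes, with adjusted p-values of 0.016, 0.020, 0.0010 and 0.0086. It also called 2163 of the 4122 probes, or 52.5%, so differences between animals were common on these arrays. Slide and brightness vary with animal and cannot be fully separated from it. In the pairs of animals that shared a slide throughout (80 and 65Y, 51Y and 20), the F test called 3 of 4 probes, with adjusted p-values of 0.037, 0.046, 0.0060 and 0.43, beside 25.5% of all tested probes.

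On the 75th percentile scale animal 20 had the lowest mean for each of the 4 probes, but for 3 of them under quantile normalization, 2 under cyclic loess and 1 under median scaling or normexp. Its means over 3 arrays were 6.72 and 6.54 for CD3D and 6.94 and 4.43 for CD3E, which is 0.57, 0.49, 1.13 and 0.65 below the mean of the other 5 animals. The highest means were 7.47 (71Y) and 7.24 (170) for CD3D and 8.25 (71Y) and 5.53 (71Y) for CD3E, so that the highest animal exceeded the lowest by 1.68-fold, 1.63-fold, 2.49-fold and 2.15-fold. Without animal 20, none of the 4 probes was called between animals, with adjusted p-values of 0.19, 0.075, 0.45 and 0.060, while 44.4% of all tested probes were. Without animal 71Y, 1 was called, beside 30.6% of all tested probes. Only for CD3E probe A_70_P039466 was animal 20 lowest under each of 6 ways of scaling and background correction, by 0.59 (normexp) to 1.17 (the authors' table). For CD3D animal 20 lay below the mean of the others under each of the 6 settings, except that under normexp it lay 0.05 above them for A_70_P039312. Under normexp it was 0.03 below the others for A_70_P039311, and no CD3 probe was called between animals, beside 26.4% of all tested probes. With the median of the array as its scale, both CD3E probes and neither CD3D probe were called, beside 56.7%. With no filter on dim probes 45.8% of all probes were called, and of the CD3 probes A_70_P039466 alone (adjusted p = 0.020).

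Other blood cells had few named markers on this array. Of 12 T cell markers 6 had a named probe, the 5 genes above and CD247, and CD3D and CD3E were tested. Of 8 B cell markers CR2 had a named probe and of 10 neutrophil markers LTF, neither of which was tested, and of 6 platelet and 3 ruminant gamma delta T cell markers 0 had one. FCGR1A of the monocyte list and CA1 of the erythroid list had named probes that were not tested. GNLY (a cytotoxic granule protein, 1 of 8 NK cell markers), CD14 and LYZ (2 of 7 monocyte markers) and HBB (1 of 10 erythroid markers) were well above background on 18 of 18 arrays. None of them was called in any treatment comparison. Their log2 differences with LPS and with MPLA were 0.19 and 0.01 for GNLY probe A_70_P050991, 0.32 and 0.08 for A_70_P050992, and 0.08 and -0.23 for HBB. They were -0.18 and -0.43 for CD14 probe A_70_P030286 and -0.32 and -0.48 for A_70_P030287, and for both LYZ probes they were -0.11 and -0.17, beside the CD3 values given above. Between animals, the means of animal 20 were below those of the others by 0.50 and 0.46 for the CD14 probes and by 0.93 for HBB, and above them by 0.34 and 0.36 for GNLY and 0.56 and 0.48 for LYZ. The arrays of animal 20 also held the largest number of probes well above background with PBS and LPS, at 6769 and 5912. The part of these differences in the low CD3 values was not tested.

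**Figure D5:**
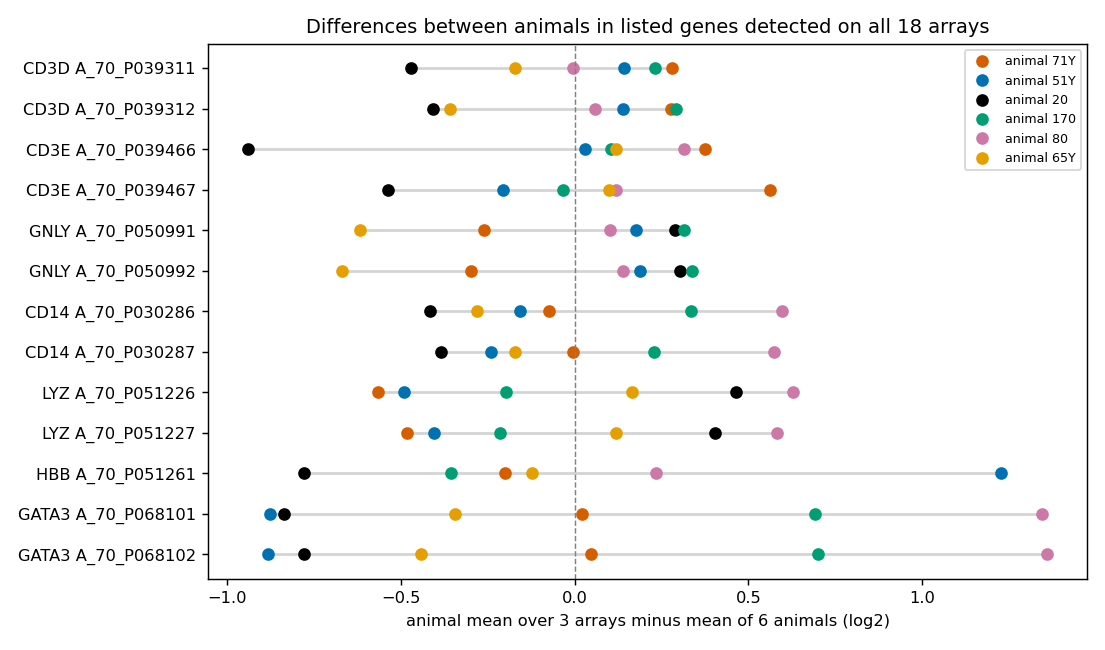
Mean of each animal over its 3 arrays minus the mean of the 6 animals (x axis, log2) for the probes of listed genes that were well above background on 18 of 18 arrays (y axis). The CD3 probes have animal 20 at the low end under 75th percentile scaling (for 1 of 4 probes under median scaling or normexp). It lay 0.49 to 1.13 below the mean of the other animals, a larger distance than the plotted one from the mean of all 6. Animal 20 is also lowest for CD14 and HBB and next to lowest for GATA3, while GNLY and LYZ have it above the mean.

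The probes of a gene ran closely together. Over 18 arrays, which share 6 animals, the CD3D probes correlated at r = 0.94 (Spearman's rho 0.95) and their difference had an SD of 0.11 on the log2 scale. The CD3E probes correlated at r = 0.82 (rho 0.88) with an SD of the difference of 0.27. Between CD3D and CD3E, r ranged from 0.54 to 0.82. CD3E probe A_70_P039467 was thus the one that followed the others least.

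The named probes whose profile was most like the mean of the 4 CD3 probes over the 18 arrays were those of RACK1 (r = 0.88, rho 0.73), RPS26 (r = 0.85, rho 0.91), TXN (r = 0.85, rho 0.68), ZFP36 (r = 0.81, rho 0.56) and a second TXN probe (r = 0.81, rho 0.46). RACK1 and RPS26 encode proteins of the small ribosomal subunit, TXN encodes thioredoxin, and ZFP36 encodes a protein that destabilises inflammatory mRNAs. Without the 3 arrays of animal 20, r became 0.70 for RACK1, 0.88 for RPS26, 0.49 and 0.15 for the TXN probes and 0.20 for ZFP36. RPS26 alone among the 5 kept a value as high without that animal, and the likeness of ZFP36 and of the second TXN probe rested on it. These correlations are descriptions over 18 arrays of 6 animals that share array brightness.

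Other genes of T cell activation were mostly dim. Of a list of 60 genes of the receptor, its signalling and T cell products, 10 had a named probe and 1 was tested. That gene was GATA3, the transcription factor of T helper 2 cells and T cell development. It differed by 0.06 with LPS and 0.13 with MPLA for probe A_70_P068101 and by 0.12 and 0.13 for A_70_P068102, and neither probe was called. Between animals A_70_P068101 ranged from 1.11 in animal 51Y to 3.33 in animal 80 (limma F test, adjusted p = 3.5e-05). Animal 20 lay 1.00 (A_70_P068101) and 0.94 (A_70_P068102) below the mean of the other animals. The cytokine genes IL4 and IL13 were not well above background on any array. IL2 was on 2 and 1 of 18 arrays with its 2 probes, IL5 on 0 and 1, and IL2RA, the high-affinity part of the IL-2 receptor, on 0 and 5. IFNG, the interferon that T and NK cells make, was on 10 and 11 of 18. For its first probe those were 2 PBS, 4 LPS and 4 MPLA arrays, and for the second 3, 4 and 4.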

How the data were processed

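Total RNA of blood preserved in PAXgene tubes was amplified, labelled and hybridised to 1-colour Agilent sheep arrays. The labels name a pair of amplification kits without saying which array had which. The authors deposited the scanner output of Agilent Feature Extraction 11.5.1.1, whose background-subtracted processed signal is the intensity used here, and a table of ratios, which hold that signal over a value near the array's 75th percentile. No genome build is given in the sources used here. Symbols came from RefSeq accessions of the probes, of which 1265 of 2200 matched RefSeq's genes for assembly ARS-UI_Ramb_v3.0, taken for names and neighbours alone.

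From the deposited intensities, log2 values minus the log2 of the 75th percentile over 15008 non-control probes were computed, and the deposited ratios were put on the log2 scale as an alternative. No pseudocount was used. No probe was saturated. Testing required a probe to be well above background on 6 of 6 arrays in 1 treatment or more, and 4122 probes met this, among them 4 of the 8 T cell probes. Treatments were compared in pairs on 12 arrays with limma 3.58.1 (R 4.3.3, two-sided, lmFit then eBayes), and animal entered as a fixed block. Differences between animals were tested with limma's F test on 18 arrays with treatment as a term. A call needed a p under 0.05 after Benjamini-Hochberg adjustment over all tested probes. Single probes were also given an exact sign-flip test.

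Replicates are separate animals, and the animal named in the sample title pairs the arrays. Deviations from treatment means correlated at 0.59 on average within animals (lowest 0.13 of 18 pairs). A fold against an array where the probe was not well above background is a bound. It was set at the lowest signal well above background on that array or the probe's own signal, whichever was higher. All probes of the 5 genes are named, with genes of the marker and T cell lists and the 5 named probes most like CD3. The genes and lists were chosen with earlier results of these data known. The model was tested on simulated data. Alternatives covered scaling, background correction (normexp with an offset of 50 on the median spot signal), the authors' table, the filter, array weights, the slide, the block, flagged spots, a floor for dim values, the test and each animal left out. Precision is limited by the number of arrays.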

Additional observations from a re-analysis of the deposited data

Results flagged for a closer look

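Of 30 groups of 6 values of these probes, levels and differences alike, 2 held an animal set apart from the others by Dixon's criterion at 95%, and chance gives about 1 in 20 groups. With PBS, CD3E probe A_70_P039466 had a level of 6.87 in animal 20, where the other 5 animals lay between 7.91 and 8.32. With PBS, LCK probe A_70_P054986 had a level of 1.66 in animal 71Y, where the other 5 animals lay between -3.17 and -2.12 and were not well above background.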

How the results depend on the processing

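The count of CD3 probes called stayed at 0 of 4 in each treatment comparison under every alternative, the fit with no replicate block (0 called) and that with animal as a random block (0 called) included; the pairing by animal therefore changed no call of these probes. Over 12 differences and their alternatives, 268 values in all, 0 passed the threshold, 27 had the opposite sign and the smallest adjusted p was 0.33. The values ran from -0.46 (LPS against PBS) to 0.70 (MPLA against LPS), both with normexp. For MPLA against PBS, CD3E probe A_70_P039467 ranged from 0.10 (array weights) to 0.43 (median scaling), and from 0.16 to 0.22 with 1 animal left out. Within slides it was 0.16 on slide 2 and 0.27 on slide 3, and slide 1 holds 1 animal for that comparison and gave no value.

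Differences between animals were less stable. They were called for 4 of 4 CD3 probes, but for 3 with quantile normalization (all but A_70_P039311). With the median in place of the 75th percentile 2 were called (both CD3E), and with normexp 0. Leaving out 1 animal gave 0 to 4 calls, 0 without animal 20 and 1 without animal 71Y. With no filter, A_70_P039466 was the CD3 probe called (adjusted p = 0.020, the others 0.055 to 0.126), while the CD4, CD28 and LCK probes were called (0.020 to 0.048) on values that are mostly not well above background. Causes were not tested.

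Counts over all probes moved more. For LPS against PBS, 37 calls became 2 with normexp, 22 with the filter of all 18 arrays, 101 with array weights and 12 on slide 1, and the methods' t-test gave 71 at its threshold and 10 after Benjamini-Hochberg. For MPLA against PBS, 41 became 24 with no filter, 1693 with array weights, 284 without animal 20, 604 on slide 2 and 19 on slide 3, and the methods' t-test gave 92 and 14. For MPLA against LPS, 2 became 0 to 2094. Between animals, 2163 became 1089 with normexp, 6877 with no filter, 1263 without animal 71Y and 1050 within slides, an alternative chosen after seeing the data.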
